A study of Komagataella phaffii with 13 samples.

Results

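The comparison described here is that of GM_2, the culture of the methylotrophic yeast P. pastoris (Komagataella phaffii) after 2 h on a mixed feed of glycerol and methanol, with G_3, the same culture after 3 h on glycerol alone. It uses 2 of the 13 RNA libraries of the series. Of 5439 identifiers in the deposited table, the 5100 with a mean of at least 1 FPKM (fragments per kilobase of transcript, scaled to library size) over the 13 libraries entered. Both libraries are labelled GS115, a strain with a his4 background that uses methanol at the full rate, and per the study's methods it carried a phytase gene of Aspergillus niger under the AOX1 promoter. The other libraries are B_10, a batch culture at 10 h, and 10 samples of the methanol induction phase taken every 12 h, M_12 to M_120.

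The study describes all libraries as serial samples of a single fermentation, so methanol, elapsed time and cell density cannot be told apart. The study's methods give the same feed rate for the glycerol and the mixed feed, and another for methanol alone. There is 1 library a side. All results are therefore sizes with no replicate check and no p-value. FPKM are relative levels in a bulk culture, in which fewer cells expressing a gene and less of its RNA per cell cannot be told apart. The labels of B_10 name a bench-scale batch, those of the methanol samples number the strain upward from GS115, and the extraction text of every sample describes an animal tissue. In the table, 5040 identifiers match locus tags of GS115.

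Methanol is oxidised in the peroxisome by alcohol oxidase (AOX1) to formaldehyde and hydrogen peroxide. Formaldehyde is then either burned to carbon dioxide by a chain of dehydrogenases, which is dissimilation, or joined to xylulose 5-phosphate by dihydroxyacetone synthase, which is assimilation. Catalase and the peroxiredoxin PMP20 remove the peroxide. Glycerol and glucose are known to repress the methanol genes of this yeast, and the mixed feed is where glycerol is still supplied while methanol appears.

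A gene was called higher or lower when its difference in log2(FPKM + 1), GM_2 minus G_3, was at least 1 in size, which is 2-fold for all but low levels. By this rule 342 genes (6.71%) were higher and 267 (5.24%) lower in GM_2 than in G_3. Of these, 86 were at least 4-fold higher and 48 at least 4-fold lower. The median over all 5100 genes was 0.03 and the middle of the distribution was narrow, with 62.5% of the genes within 0.5 of 0. Called genes were found at all levels. Among the 1700 genes with the highest mean FPKM, 186 were higher and 140 lower, against 77 and 52 of the 1700 at middle levels and 79 and 75 of the 1700 at the lowest levels. Between successive methanol libraries the same rule called 6 to 157 genes, with a median of 15 over 9 steps, and 50 at most without the step M_24 against M_12. In G_3 against B_10, which shares G_3 with the present comparison, 126 genes (2.47%) were higher and 40 (0.784%) lower.

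**Figure D1:**
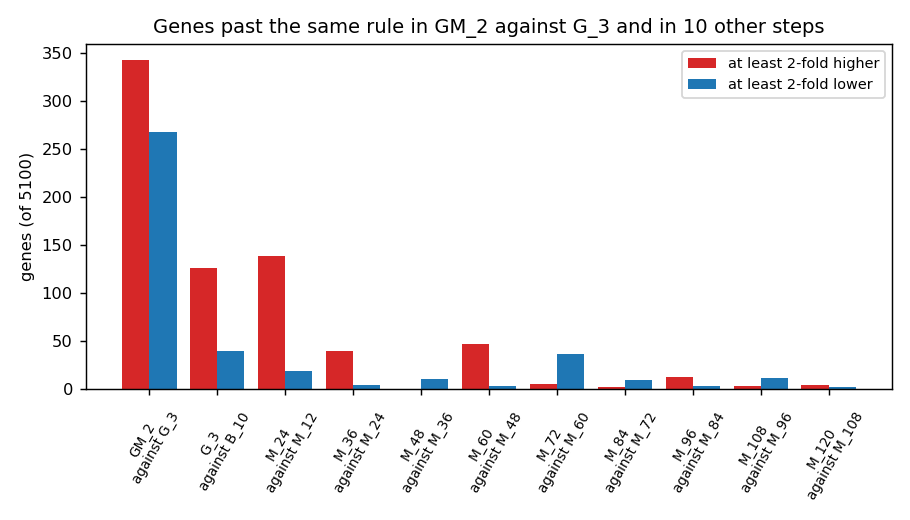
Number of genes, of 5100, at least 2-fold higher (red) or lower (blue) in each step, with 1 library a side and steps on the horizontal axis. GM_2 against G_3 has 342 and 267 genes, G_3 against B_10 has 126 and 40, and the 9 steps between successive methanol libraries have 6 to 157 in all.

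The steps between low FPKM values gave the depth, 42431944 fragments in GM_2 and 34291072 in G_3. Counting error was therefore small. No gene of the lists below had fewer than 484 fragments in GM_2 or 468 in G_3, and the 95% counting interval of its log2 ratio was at most 0.186 to either side. These intervals cover counting error only. Among the calls, only those of values beside the threshold are within reach of it. The sign of values close to 0 is within its reach as well. The lists were taken from the study, which drew them from these libraries, so their direction is no independent evidence. Of the 128 genes that its tables name, 38 (29.7%) were higher and 9 (7.03%) lower, against 6.71% and 5.24% of all genes.

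All 4 genes of methanol dissimilation were higher in GM_2, with a median log2 difference of 3.69, and FDH led the whole table. FDH, the formate dehydrogenase that releases the carbon dioxide, had 13046 FPKM in GM_2 and 134 FPKM in G_3, a log2 difference of 6.59. AOX1 had 928 FPKM in GM_2 and 38.2 FPKM in G_3, a log2 difference of 4.57. FLD, the glutathione-dependent formaldehyde dehydrogenase, had 2532 FPKM in GM_2 and 358 FPKM in G_3, a log2 difference of 2.82. FGH, the S-formylglutathione hydrolase between FLD and FDH, was the least changed of the chain, with 554 FPKM in GM_2 and 103 FPKM in G_3 and a log2 difference of 2.41. The 4 genes held 1.74% of all FPKM in GM_2, against 0.0643% in G_3.

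The first and the last enzyme of this chain stood at very different distances from their later levels. FDH in GM_2 was at 63.5% of its FPKM in M_12, the first library on methanol alone, and FLD at 29.9%. FGH was at 14.4% and AOX1 at only 3.85% of the M_12 level. In M_12 itself AOX1 had the most FPKM of the 4 with 24093, ahead of FDH with 20551. In GM_2 the order was reversed, and AOX1 had less FPKM than FLD.

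In methanol assimilation 6 of 7 genes were higher in GM_2, with a median log2 difference of 1.69. The dihydroxyacetone synthases, which fix formaldehyde, changed most. DAS2 had 1283 FPKM in GM_2 and 17.4 FPKM in G_3, a log2 difference of 6.13. DAS1 had 374 FPKM in GM_2 and 18.2 FPKM in G_3, a log2 difference of 4.29. The genes are similar copies, and the sources do not say how the authors' counting divided fragments between them. With near-equal levels in G_3, they were far apart in GM_2.

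The enzymes downstream of DAS were less changed. DAK, the dihydroxyacetone kinase, had 845 FPKM in GM_2 and 261 FPKM in G_3, a log2 difference of 1.69. FBA1-2, TAL1-2 and RKI1-2 are second copies of an aldolase, a transaldolase and a ribose-5-phosphate isomerase, and belong to the rearrangement reactions that restore xylulose 5-phosphate. FBA1-2 had 64.7 FPKM in GM_2 and 14.4 FPKM in G_3, a log2 difference of 2.09. TAL1-2 had 41.3 FPKM in GM_2 and 12.2 FPKM in G_3, a log2 difference of 1.68. RKI1-2 had 71.5 FPKM in GM_2 and 25.2 FPKM in G_3, a log2 difference of 1.47. Each of the 3 copies was at 2.06 to 5.15% of its M_12 level, against 29.5% for DAK. FBPI, the fructose-1,6-bisphosphatase, did not pass the rule, with 492 FPKM in GM_2 and 300 FPKM in G_3 and a log2 difference of 0.71.

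The cytosolic counterparts of these enzymes did not pass the rule. TAL1-1, which lies beside TAL1-2, had 1284 FPKM in GM_2 and 1395 FPKM in G_3, a log2 difference of −0.12. RKI1-1 had a log2 difference of −0.16, and the transketolase TK −0.55. FBA1-1, the glycolytic aldolase, had 1979 FPKM in GM_2 and 3384 FPKM in G_3, a log2 difference of −0.77.

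**Figure D2:**
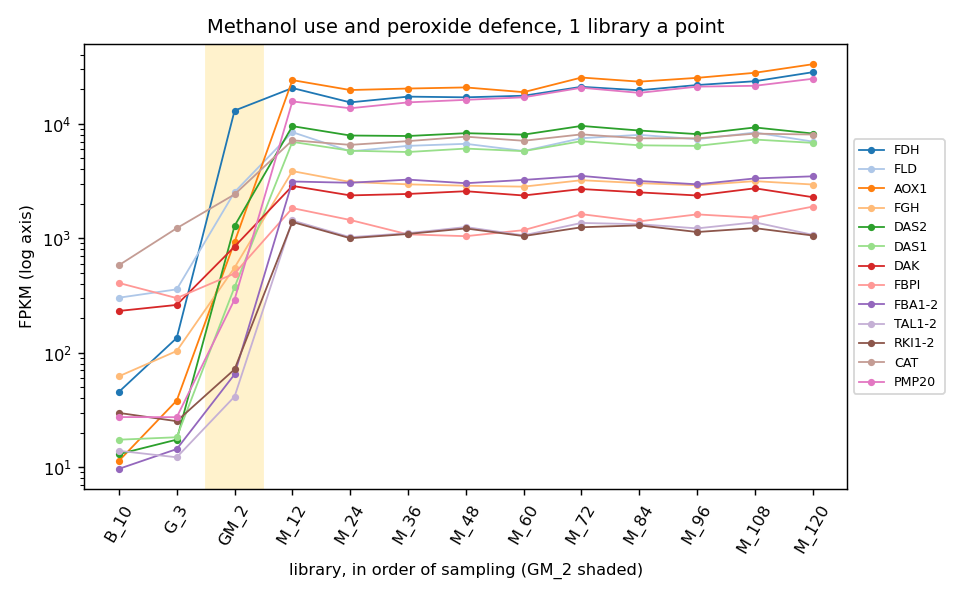
FPKM (log axis) of 13 genes of methanol use and peroxide defence in the 13 libraries in order of sampling, 1 line a gene and 1 library a point, with GM_2 shaded. In GM_2 each gene lies above B_10 and G_3 and below all 10 methanol libraries, with FDH closest to its M_12 level (63.5%) and PMP20 farthest from it (1.86%).

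The defences against peroxide were unequal in GM_2. PMP20, the peroxisomal peroxiredoxin, had 291 FPKM in GM_2 and 27.3 FPKM in G_3, a log2 difference of 3.37, yet this was only 1.86% of its M_12 level. CAT, catalase, had 2417 FPKM in GM_2 and 1224 FPKM in G_3, a log2 difference of 0.98 that fell just short of the rule, and stood at 33.7% of M_12. Set against the mean of B_10 and G_3, the log2 difference of CAT was 1.52, since B_10 had 581 FPKM.

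**Figure D3:**
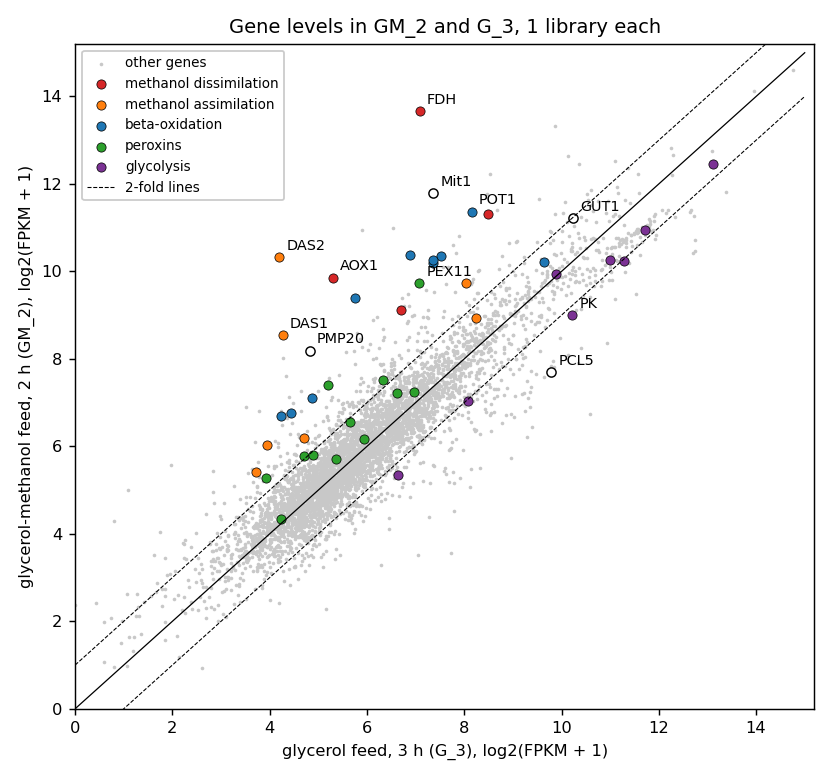
Levels of 5100 genes as log2(FPKM + 1), G_3 on the horizontal and GM_2 on the vertical axis, with the line of equality and dashed 2-fold lines. Methanol (red and orange) and beta-oxidation genes (blue) lie above the upper line apart from FBPI and FAA1, and most glycolysis genes (purple) lie below equality.

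Genes of glycerol use did not fall when methanol was added. GUT1, the glycerol kinase, had 2395 FPKM in GM_2 and 1202 FPKM in G_3, a log2 difference of 0.99. ADH, an NADPH-dependent alcohol dehydrogenase of broad specificity that the study lists with it, had 34.4 FPKM in GM_2 and 16.6 FPKM in G_3, a log2 difference of 1.01. These values lie on either side of the threshold and the counting interval of each log2 ratio, 0.98 to 1.01 and 0.92 to 1.18, includes 1, so that the call of ADH and the lack of one for GUT1 should not be read as a contrast. Both genes had their highest FPKM of all 13 libraries in GM_2. In M_12, where glycerol was no longer fed, GUT1 had 58.3 FPKM and ADH 4.72 FPKM.

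Among 4 regulators of the AOX1 promoter, Mit1 and Mxr1 were higher. Mit1, a zinc-finger activator of methanol genes, had 3542 FPKM in GM_2 and 164 FPKM in G_3, a log2 difference of 4.43, the sixth largest of the genes with at least 10 FPKM in either library. Mxr1, the carbon-source-responsive activator of the same genes, had 207 FPKM in GM_2 and 91.1 FPKM in G_3, a log2 difference of 1.18. Prm1, a zinc-cluster activator, had a log2 difference of 0.49, and C4qzn3, which the study lists with the regulators, one of −0.13. Mit1, Mxr1 and Prm1 all had their highest level of the 13 libraries in GM_2. For Prm1 the margin was small, with 63.4 FPKM in GM_2 against 61.5 FPKM in M_72. Mit1 reached only 775 to 1297 FPKM in the methanol libraries, in which the AOX1 level was 18912 to 33180 FPKM, so the activator and AOX1 were not highest at the same time.

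Peroxisomes house the first steps of methanol use, and the peroxins build them and import their enzymes. All 12 peroxins had a positive log2 difference and 5 passed the rule, with a median of 0.92. For PEX20 the counting interval of −0.04 to 0.26 includes 0, so its sign is within counting error. PEX11, which drives peroxisome proliferation, had 851 FPKM in GM_2 and 133 FPKM in G_3, a log2 difference of 2.66. PEX5, the import receptor for most matrix proteins, had 169 FPKM in GM_2 and 35.6 FPKM in G_3, a log2 difference of 2.22. PEX6, an ATPase that recycles this receptor, had a log2 difference of 1.35, and the docking protein PEX13 had 1.19. The smallest differences were those of PEX20 at 0.10, PEX3 at 0.22 and PEX14 at 0.27, a co-receptor, a membrane biogenesis factor and a docking protein. PEX7, the receptor for the other import signal, had a log2 difference of 0.93 and was the only peroxin whose FPKM in GM_2 was not below that of all 10 methanol libraries.

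The 2 peroxisomal membrane proteins on the study's list were both higher, with different later levels. PMP47 had 152 FPKM in GM_2 and 56.7 FPKM in G_3, a log2 difference of 1.41, and stood at 5.96% of M_12. PXMP4 had 129 FPKM in GM_2 and 50.6 FPKM in G_3, a log2 difference of 1.33, and was at 332% of M_12.

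Beta-oxidation, which in yeast shortens fatty acids in the peroxisome, was raised in GM_2 to levels that the methanol phase did not reach. Of 10 genes 9 were higher in GM_2 than in G_3, with a median log2 difference of 2.83. The 9 genes had their highest FPKM of all 13 libraries in GM_2. The list held 1.01% of all FPKM in GM_2, against 0.185% in G_3, and 0.332% in M_12.

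Every enzyme of the core cycle on the list was raised by a similar factor. POX1, the acyl-CoA oxidase that makes hydrogen peroxide in its first step, had 1307 FPKM in GM_2 and 182 FPKM in G_3, a log2 difference of 2.83. FOX2, the multifunctional hydratase and dehydrogenase, had 1216 FPKM in GM_2 and 164 FPKM in G_3, a log2 difference of 2.89. POT1, the thiolase that closes the cycle, had 2643 FPKM in GM_2 and 283 FPKM in G_3, a log2 difference of 3.22. The 3 log2 differences thus ran from 2.83 to 3.22.

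The auxiliary enzymes for unsaturated chains were also higher. SPS19, the 2,4-dienoyl-CoA reductase, had 1335 FPKM in GM_2 and 117 FPKM in G_3, a log2 difference of 3.50. PAS_chr2-1_0249, described in the study's tables as a second such reductase, had 676 FPKM in GM_2 and 53.1 FPKM in G_3, a log2 difference of 3.64. PAS_FragB_0022, described there as a dienoyl-CoA isomerase, had a log2 difference of 2.25. PXA1 and PXA2, the subunits of the transporter that brings long-chain acyl-CoA into the peroxisome, had log2 differences of 2.32 and 2.45. FAA2, an acyl-CoA synthetase, had 1161 FPKM in GM_2 and 164 FPKM in G_3, a log2 difference of 2.82. FAA1, the other synthetase, did not pass the rule, with 1181 FPKM in GM_2 and 796 FPKM in G_3 and a log2 difference of 0.57, and it alone on this list was not at its maximum in GM_2.

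The 9 called genes were lower in M_12 than in GM_2, and FAA1 was not. The GM_2 levels were 618% of M_12 for POX1, 599% for POT1 and 1063% for FAA2, against 98.4% for FAA1. The storage lipid acyltransferases did not pass the rule, with log2 differences of −0.68 for DGA1 and −0.66 for LRO1.

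**Figure D4:**
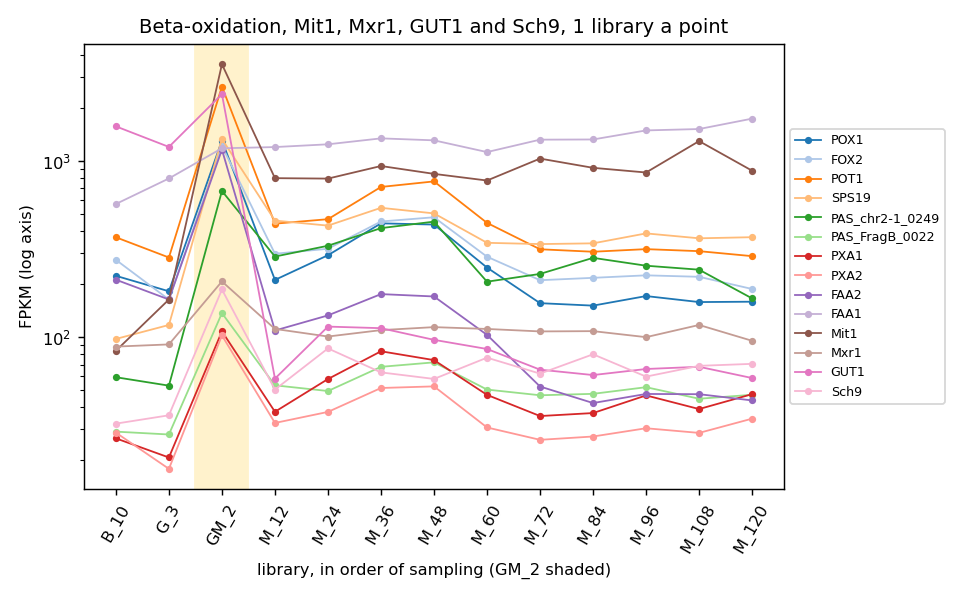
FPKM (log axis) of 14 genes in the 13 libraries in order of sampling, 1 line a gene and 1 library a point, with GM_2 shaded: 10 beta-oxidation genes with Mit1, Mxr1, GUT1 and Sch9. Every line but that of FAA1 has its maximum in GM_2, where POT1 has 2643 FPKM and Mit1 3542 FPKM.

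Glycolysis was the list with the most lower genes. Of 8 genes 4 were lower in GM_2 than in G_3 and none was higher, with a median log2 difference of −0.91, and the list held 1.19% of all FPKM in GM_2, against 1.95% in G_3. The phosphoglycerate mutase TPM had 39.8 FPKM in GM_2 and 98.5 FPKM in G_3, a log2 difference of −1.29. The pyruvate kinase PK had 508 FPKM in GM_2 and 1191 FPKM in G_3, a log2 difference of −1.23. The enolase ENOI and the phosphofructokinase subunit FPK1 both had a log2 difference of −1.04. TPM and FPK1 lost their call against the mean of B_10 and G_3, at −0.901 and −0.845. PGK, the phosphoglycerate kinase, had −0.74, and GPD, the glyceraldehyde-3-phosphate dehydrogenase, had −0.65, with 5615 FPKM in GM_2 and 8813 FPKM in G_3. The glucose-6-phosphate isomerase GPI, at 0.05, was the only member with a positive value.

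Around pyruvate and the citric acid cycle the changes were mixed. None of the 4 pyruvate dehydrogenase genes passed. The log2 differences were 0.06 for the E1 alpha subunit (PDE1, PAS_chr2-2_0294), −0.35 for the E1 beta subunit (PDE1, PAS_chr1-4_0593), −0.32 for the acetyltransferase PDE2 and −0.17 for the dihydrolipoamide dehydrogenase DLD. In the cycle CTS, citrate synthase, had 1629 FPKM in GM_2 and 537 FPKM in G_3, a log2 difference of 1.60. MDH, malate dehydrogenase, had 2243 FPKM in GM_2 and 1106 FPKM in G_3, a log2 difference of 1.02, which was 0.92 against the mean of B_10 and G_3. IDH, the NADP-specific isocitrate dehydrogenase, was lower, with 163 FPKM in GM_2 and 367 FPKM in G_3 and a log2 difference of −1.17. Succinate dehydrogenase (SDH) at 0.77, the succinyl-CoA ligase subunit SCS1 at −0.13 and ODE at −0.08 did not pass. CTS, MDH, SDH and SCS2 had their highest levels of the 13 libraries in GM_2. In GM_2, 6 of the 7 genes of the cycle were above all 10 methanol libraries, against 35.1% of all genes. Of these, SCS1, SCS2 and ODE were above them in G_3 too, with 902, 636 and 613 FPKM there, and CTS, MDH and SDH were not. IDH was above them in G_3 but not in GM_2.

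Lists for secretion stress and signalling stayed near the median of all genes. Of 20 genes of the unfolded protein response and ER degradation 1 was higher and none lower, with a median log2 difference of 0.10. That gene was Ire1, the ER stress sensor, with 69.2 FPKM in GM_2 and 33.8 FPKM in G_3 and a log2 difference of 1.01, whose counting interval of 0.98 to 1.09 includes 1. Its target HAC1, the transcription factor of the response, had a log2 difference of 0.64 and the ubiquitin ligase Hrd1 (PAS_chr4_0444) 0.75. At the low end stood the chaperones Hsp90 at −0.70 and Hsp70 at −0.59 and the translation factor eIF2a at −0.63. BiP, the main ER chaperone, had 603 FPKM in GM_2 and 536 FPKM in G_3, a log2 difference of 0.17.

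Of 13 genes of the MAPK pathway, which carries signals from the cell wall, osmotic stress and mating, 1 was lower and none higher, with a median of −0.01. Mkk1, a kinase of the cell wall branch, had 19.6 FPKM in GM_2 and 50.2 FPKM in G_3, a log2 difference of −1.31, and its lowest level of the 13 libraries in GM_2. The osmotic stress kinase Hog1 had −0.27 and the sensor Wsc (PAS_chr1-4_0415) −0.26. At the other end were a second Wsc gene (PAS_chr3_0673) at 0.57, Ste11 at 0.18 and Ypd1 at 0.13.

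Autophagy and nutrient signalling had 3 higher and 2 lower genes of 25, with a median of −0.09. Sch9, a nutrient-responsive protein kinase, had 187 FPKM in GM_2 and 36.1 FPKM in G_3, a log2 difference of 2.34, and its highest level of the 13 libraries. ATG11, the scaffold of selective autophagy, had a log2 difference of 1.49, and the vacuolar protease PRB1 had 1.22. PCL5, a cyclin known in S. cerevisiae as a target of Gcn4, had 206 FPKM in GM_2 and 884 FPKM in G_3, a log2 difference of −2.09. ATG22, a vacuolar membrane protein, had −1.55, and the autophagy kinase ATG1 −0.83. Of the 10 genes named ATG, 7 had negative values, against 2450 of all 5100 genes. In GM_2, 9 of the 10 were below all 10 methanol libraries, against 32.7% of all genes. ATG11 was the exception. This was not particular to GM_2, since in G_3 and in B_10 every gene named ATG was below all methanol libraries. ATG11 had 19.5 FPKM in G_3 and 56.2 FPKM in GM_2, against 32.9 FPKM in its lowest methanol library.

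The tables also hold 3 genes outside these lists. PAS_chr1-1_0108, which has no described function there, had 2713 FPKM in GM_2 and 410 FPKM in G_3, a log2 difference of 2.72. PIM1-2, a mitochondrial Lon protease, had 71.8 FPKM in GM_2 and 29.4 FPKM in G_3, a log2 difference of 1.26. ERG20, the farnesyl pyrophosphate synthetase of sterol synthesis, had 80.0 FPKM in GM_2 and 192 FPKM in G_3, a log2 difference of −1.25.

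**Figure D5:**
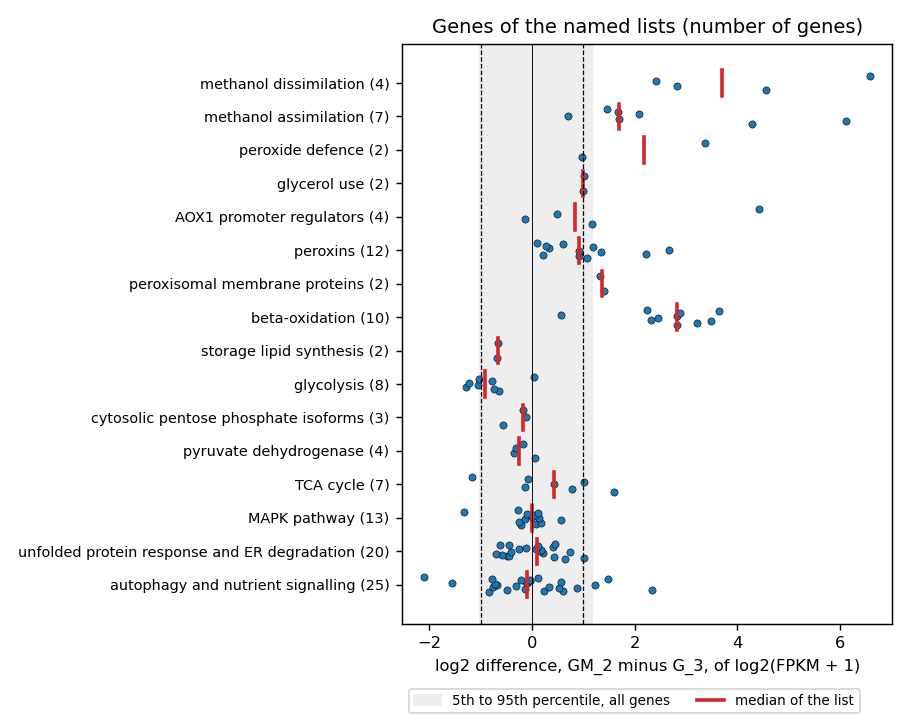
Log2 difference, GM_2 minus G_3, of each gene (blue points) of the 16 lists on the vertical axis, with the number of genes beside each name, red bars for list medians, dashed lines at −1 and 1 and a grey band from the 5th (−1.01) to the 95th percentile (1.18) of all genes. The medians of dissimilation (3.69) and beta-oxidation (2.83) are highest and that of glycolysis (−0.91) lowest.

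The strongest changes included genes inside and outside the named pathways. Table genes were 2.51% of the 5100 genes. Of the 20 largest increases among genes with at least 10 FPKM in either library, 8 were table genes, namely FDH, DAS2, AOX1, Mit1, DAS1, PAS_chr2-1_0249, SPS19 and PMP20. None of the 20 largest decreases, which ran from −4.17 to −2.43, was a table gene. PAS_chr1-4_0516 had 1963 FPKM in GM_2 and 58.7 FPKM in G_3, a log2 difference of 5.04, and PAS_chr1-3_0011 had 2051 FPKM in GM_2 and 91.6 FPKM in G_3, a log2 difference of 4.47. PAS_chr2-1_0037 had 10.7 FPKM in GM_2 and 211 FPKM in G_3, a log2 difference of −4.17, and PAS_chr4_0042 had 105 FPKM in GM_2 and 1533 FPKM in G_3, a log2 difference of −3.85. These 4 are given by identifier because the sources used here pair them with no name. The 342 higher genes together held 18.6% of all FPKM in GM_2, against 4.57% in G_3, and the 267 lower genes 5.35% in GM_2, against 15.4% in G_3. The direction of these shares is set by the rule that chose the genes, so only their size is informative.

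The most abundant transcripts were partly exchanged. The 10 genes with the most FPKM in GM_2 held 10.7% of all FPKM in GM_2 and 6.91% in G_3, and the 10 largest of G_3 held 7.01% in GM_2 and 10.7% in G_3, with 3 genes in both sets. FDH was the only table gene among the 10 of GM_2 and GPD the only one among the 10 of G_3.

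Called genes often lay next to each other. Neighbours were taken along the chromosomes by gene order in the RefSeq table of assembly ASM2700v1. Each adjacent pair was counted from both sides, so a gene can be counted more than once. Of the 654 neighbour positions beside higher genes, 152 (23.2%) held a higher gene, against 6.71% of all genes. These came from 76 adjacent pairs with both genes higher. Of the 528 neighbour positions beside lower genes, 70 (13.3%) held a lower gene, against 5.24% of all genes, from 35 pairs with both genes lower. The longest run of higher genes had 5 members and held DAS1, PAS_chr3_0833, DAS2, Mit1 and PAS_chr3_0837. PAS_chr3_0833, between the synthases, had 77.5 FPKM in GM_2 and 23.1 FPKM in G_3, a log2 difference of 1.70. The sources do not say if fragments were counted by strand, and the part of reads that overlap a neighbour was not tested.

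The response in GM_2 was set beside M_12 against B_10, a comparison that shares no library with it, although all come from the same fermentation. In M_12 against B_10, 760 genes (14.9%) were higher and 837 (16.4%) lower. Of the 342 genes higher in GM_2, 168 (49.1%) were also higher in M_12 than in B_10, which is 22.1% of those 760, and 27 were lower there. Of the 267 genes lower in GM_2, 153 (57.3%) were also lower in M_12, which is 18.3% of those 837, and 14 were higher there. The other 147 higher and 100 lower genes passed in neither direction in M_12.

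Set against the whole methanol phase, 185 of the 342 higher genes (54.1%) were above all 10 methanol libraries in GM_2, and 75 (21.9%) below all of them. Over all 5100 genes the shares were 35.1% and 32.7%. The choice of genes high in GM_2 by itself favours the first share, since GM_2 enters both. The 10 called genes of dissimilation and assimilation belonged to the 75, and 9 of the 10 beta-oxidation genes to the 185. Of the 267 lower genes, 138 (51.7%) were below all methanol libraries and 18 above. The choice of genes low in GM_2 likewise favours the share below, since GM_2 enters both.

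The rule has a sharp edge. The 5 genes just inside it on the higher side had log2 differences from 1.00 to 1.01, among them ADH, and the 5 just outside from 0.99 to 1.00, among them GUT1. With a pseudocount of 5 in place of 1, ADH and Ire1 fell under it, at 0.87 and 0.94.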

How the data were processed

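RNA of 13 samples was sequenced as paired-end reads, aligned by the authors with HISAT2 2.0.5 and deposited as FPKM, 1 value per gene and library, already scaled to library size and gene length. Genome build and counting tool: not given in the sources used here. Authors' fold changes in the study's supplementary tables were not used. GM_2 and G_3 were compared as the difference of log2(FPKM + 1) over 5100 genes, those whose FPKM averaged 1 or more. With 1 library each, a log2 difference of at least 1 was a rule of size, not a test. Fragments were recovered from the steps of low FPKM values, of which 89.9% in G_3 and 91.9% in GM_2 were whole within 0.01, and the libraries of the series held 23594606 to 42750702 fragments. Intervals are exact binomial (Clopper-Pearson) intervals of the plain log2 ratio, without the pseudocount.

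Gene lists and names came from the study's tables. The text names all genes of the methanol, peroxide, glycerol, regulator and beta-oxidation lists, the 3 largest and 3 smallest differences of other lists, and the extremes of the whole table. Unnamed genes are counted, with at most 2 a direction given by identifier. A few further genes were added after their values were seen: PEX7, PEX13, FPK1, FBA1-1, SCS2 and BiP, the genes outside the lists, and PAS_chr3_0833 and PAS_chr3_0837. The members, lists and rules were chosen with earlier results of these data known. The values of 1 list gene are not reported here. AOX2, lists by product name and sequence features were not analysed here. The rule was run on simulated data with counting error only and planted changes past the threshold. That run therefore says nothing of the spread between cultures. Python 3.11.15 with numpy 2.4.6, pandas 2.3.3, scipy 1.17.1 and matplotlib 3.10.9 was used. Alternatives changed the pseudocount, filter, threshold, scaling and reference library.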

Additional observations from a re-analysis of the deposited data

How the results depend on the processing

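The counts followed the threshold, with 1010 genes higher and 902 lower at a log2 difference of 0.5 and 154 higher and 104 lower at 1.5. Under the other pseudocounts (0.1 and 5), filters, scalings and the reference of the mean of B_10 and G_3, 287 to 386 genes were higher and 227 to 285 lower. Of 128 list medians 121 kept their direction and their side of the threshold, and none of the medians or of 1022 gene values was reversed as a call. The median of glycerol use (GUT1 and ADH) was 0.93 with a pseudocount of 5 and 0.86 against the mean of B_10 and G_3. Against this mean, the median of the MAPK pathway was 0.18, of the unfolded protein response and ER degradation −0.06, and of autophagy and nutrient signalling 0.011. With equal FPKM totals the MAPK median was 0.00264, and 0.00172 when the totals left out the 20 largest genes. GUT1 reached 1.0 with both rescalings. Against the mean of B_10 and G_3, HAC1 passed at 1.06, and Hsp70 and Hsp90 passed at −1.21 and −1.26, while ADH was at 0.91. The shifts against this mean follow from levels in B_10 that differ from those in G_3. Hsp70 had 4368 FPKM in B_10 and 1831 FPKM in G_3, and Hsp90 had 2549 and 1173 FPKM. HAC1 had 112 FPKM in B_10 and 198 FPKM in G_3. Why B_10 differed from G_3 was not tested. No paired analysis was possible because each condition has 1 library. Rescaling without ribosomal protein genes was not run, since the tables used here give no product names. Counting error was small, and the spread between cultures is unknown.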
